A study of Mus musculus with 6 samples.

Results

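The cyclins, cyclin-dependent kinases (CDKs), CDK inhibitors, E2F transcription factors and retinoblastoma family genes were examined in RNA-seq of hematopoietic stem and progenitor cells (HSPCs). Members were chosen by symbol: cyclins A to L, numbered CDKs, the Cip/Kip and INK4 inhibitors (Cdkn1 and Cdkn2 genes), E2f1 to E2f8, Rb1, Rbl1 and Rbl2. Of the 23997 gene symbols in the deposited table, 56 matched and 51 had a mean of at least 1 normalized count over the 6 libraries. Libraries came from 3 RNA preparations of Mirc11-/- HSPCs and 3 of wildtype HSPCs. Mirc11-/- mice carry a germline deletion of the cluster that encodes miR-27a, miR-23a and miR-24 (Mir24-2) in every cell, and the wildtype mice carry none. Both groups were on a C57BL/6 background and aged 6 to 8 weeks, had no treatment, and shared 1 batch label. Cells were sorted from bone marrow as Lin-Sca1+cKit+, with the erythroid marker Ter119 in the lineage cocktail, and the RNA of each library was pooled from several mice. A figure legend of the study gives the cells as Lin-Sca1-cKit+, whereas its methods and the labels give Sca1+. The replicates are separate RNA preparations, so p-values measure the spread between pools and not between single mice.

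The cell cycle is driven by kinases that are active only when bound to a cyclin. D cyclins with Cdk4 or Cdk6 phosphorylate the retinoblastoma proteins in G1, which releases E2F factors that switch on cyclin E, cyclin A and other S phase genes, and cyclin B with Cdk1 then drives mitosis. CDK inhibitors and the retinoblastoma proteins with the repressor E2Fs hold cells in quiescence, the state of most long-term stem cells in adult mouse marrow. Sorted HSPCs mix such cells with cycling multipotent progenitors, and in bulk RNA fewer cells of a type and less RNA per cell cannot be told apart.

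The deleted cluster encodes 3 mature miRNAs, shown because their seeds (bases 2 to 8, in capitals) define which transcripts they can pair with. They lie on chromosome 8, plus strand, of GRCm38.p6, and their sequences are from RefSeq.
miR-23a-3p: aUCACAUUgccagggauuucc
miR-27a-3p: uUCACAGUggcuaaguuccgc
miR-24-3p: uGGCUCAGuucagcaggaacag
In the sequences used, the miR-27a seed is shared with miR-27b-3p, and the same mature miR-24-3p is also encoded by Mir24-1. They held no other miRNA with the miR-23a seed, but the study names a paralog cluster, Mirc22, that encodes miR-23b. Whether the miR-23a seed is shared was thus not settled. The labels were checked on the cluster itself: the 3 Mirc11-/- libraries had 0 reads of the genes Mir23a, Mir27a and Mir24-2, against 51, 54 and 73 reads in the 3 wildtype libraries together.

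Sequencing depth was similar, with 15029379 to 17051541 reads in genes in Mirc11-/- libraries and 15772826 to 16250826 in wildtype libraries. The gate's own markers were present, with Kit at 6644 to 9950 normalized counts in Mirc11-/- HSPCs and 8577 to 9416 in wildtype HSPCs, and Ly6a (Sca-1) at 374 to 534 and 444 to 683. Mirc11-/- replicates 1 and 2 stood apart. On the first principal component (31.3% of the variance) they scored 54.6 and 25.5, while Mirc11-/- replicate 3 scored -19.5 and the wildtype libraries -26.2 to -13.5. Erythroid markers moved the same way. Of 25 markers 24 were measured and none was at 0 in any library. Their summed level was 67089, 60803 and 26351 normalized counts in Mirc11-/- replicates 1, 2 and 3, and 24571 to 35980.5 in wildtype libraries. All 24 had positive log2 fold changes, and 11 were higher in Mirc11-/- HSPCs at an unadjusted p under 0.05. The erythroid transcription factor genes Klf1 and Gata1 showed the same split, with Klf1 at 1724, 1762 and 604 in Mirc11-/- libraries and 451 to 922 in wildtype libraries. None passed the adjusted threshold with all libraries, and 23 of the 24 were called higher without Mirc11-/- replicate 3. Member calls that changed without that library are given beside each member, and the part of erythroid cells in them was not tested.

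No member passed an adjusted p of 0.05 by limma in the comparison of Mirc11-/- with wildtype HSPCs, where 0.0319% of the 15662 genes tested did. By unadjusted p at the same threshold, 2 members were higher (Ccng1 and Cdk12, 3.92%) and 3 lower (Cdkn1a, Cdk19 and Ccnl1, 5.88%), against 4.15% and 4.09% of all genes. The share in each direction was close to that of all genes. Without Mirc11-/- replicate 3 the counts were 13 higher (25.5%) and 5 lower (9.80%), against 9.87% and 10.2% of all genes. The count of higher members was 0 without Mirc11-/- replicate 1, Mirc11-/- replicate 2 or wildtype replicate 2, 1 without wildtype replicate 1 and 4 without wildtype replicate 3. Values did not overlap between the genotypes for 5 members (Cdkn1a, Cdk7, Cdk9, Cdk16 and Cdk20, 9.80%), against 12.9% of all genes. For each of these an exact permutation test gave p = 0.1, the smallest that 3 against 3 libraries allow. The median log2 fold change was 0.07 over the members, 30 of them positive and 21 negative, and 0.0025 over all genes. Without Mirc11-/- replicate 3, limma called Ccne1, Ccne2 and E2f4 higher (5.88% of members, against 1.94% of all genes) and Cdk19 lower (1.96%, against 1.46%).

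**Figure D1:**
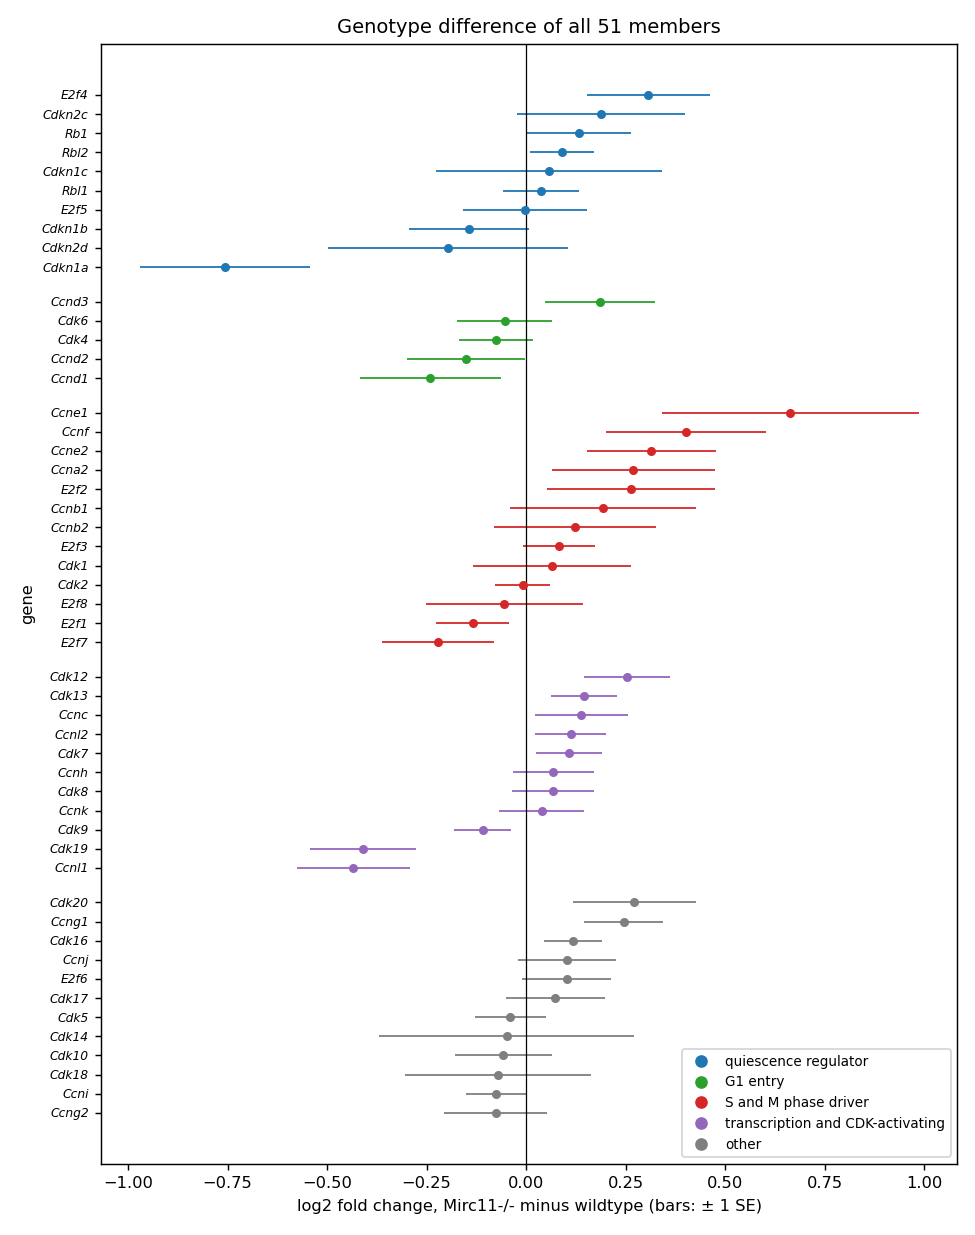
Log2 fold change (x axis, Mirc11-/- minus wildtype, bars ± 1 SE) of the 51 members, grouped and colored by role. Cdkn1a at -0.76 and Ccne1 at 0.66 lie farthest from 0, and the other members lie between -0.43 and 0.40.

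Among the quiescence regulators, Cdkn1a was the member with the smallest p. It encodes the Cip/Kip inhibitor p21, which blocks cyclin-CDK complexes and is induced by p53. Cdkn1a had 299, 281 and 269 normalized counts in Mirc11-/- HSPCs, against 326, 560 and 598 in wildtype HSPCs. Every Mirc11-/- library was below every wildtype library, and wildtype replicate 1 lay much nearer to the Mirc11-/- libraries than to the other wildtype libraries. The log2 fold change was -0.76 ± 0.21 (SE, limma adjusted p = 0.444). It was -1.03 without wildtype replicate 1 and -0.59 without wildtype replicate 3, so the size of the difference depended on single wildtype libraries. Exons of Cdkn1a overlap those of AC167363.2 by 273 bases, and no source used here says whether reads were counted by strand. The annotated gene lies at chr17:29090976-29100727 (plus strand). Upstream of its first annotated start stand matches to the half-site to which p53 binds, in capitals.
Cdkn1a, chr17:29090896-29090947: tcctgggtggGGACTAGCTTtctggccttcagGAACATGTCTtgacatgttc
Such a half-site was found within 250 bases upstream of 3 of 39 members with a RefSeq window (Cdkn1a, Cdkn2d and Ccng1, 7.69%), and of 8.20% of 27025 genes.

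The p53 pathway around Cdkn1a gave no common direction. Of 20 other p53 target genes, 4 passed an unadjusted p of 0.05, 2 on each side, and their median log2 fold change was 0.01. Without Mirc11-/- replicate 3, 1 of the 20 was called, on the lower side. Sesn2, a stress-induced regulator of TORC1, had a log2 fold change of 0.78 ± 0.19 (SE, limma adjusted p = 0.419), with 323, 245 and 246 normalized counts in Mirc11-/- HSPCs and 137, 144 and 193 in wildtype HSPCs. The polo-like kinase genes Plk2 and Plk3 had log2 fold changes of -1.07 and -1.13 (limma adjusted p = 0.419 and 0.459). Trp53, which encodes p53 itself, was at 3726 to 3782 in Mirc11-/- HSPCs and 3703 to 4132 in wildtype HSPCs. Ccng1, a cyclin gene that p53 also induces, lay on the positive side. Immediate-early genes, which cells switch on within minutes of a stimulus, were on the same side as Cdkn1a. All 26 had negative log2 fold changes (median -0.82) and 19 were lower at an unadjusted p under 0.05, but none passed the adjusted threshold. Without Mirc11-/- replicate 3, 13 of the 26 were called lower. Relative to wildtype, their mean log2 level was -1.16, -0.59 and -0.88 in Mirc11-/- replicates 1, 2 and 3, against -0.49, 0.10 and 0.39 in wildtype replicates 1, 2 and 3. Wildtype replicate 1 was thus the lowest wildtype library for these genes as for Cdkn1a, and the part of this response in the Cdkn1a values was not tested.

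The other inhibitors did not share the position of Cdkn1a. Cdkn1b, the gene for the p27 inhibitor of cyclin E-Cdk2, had 1020, 1046 and 1108 normalized counts in Mirc11-/- HSPCs and 957, 1108 and 1504 in wildtype HSPCs (log2 fold change -0.14 ± 0.15, limma adjusted p = 0.807). The Mirc11-/- values lay inside the wildtype range. Cdkn1c, whose product p57 is linked to stem cell quiescence in mice, had 56.7, 92.4 and 104 in Mirc11-/- HSPCs and 68.0, 68.5 and 103 in wildtype HSPCs, a difference of 0.06 ± 0.28 on the log2 scale. The INK4 gene Cdkn2c, an inhibitor of Cdk4 and Cdk6, had 780, 658 and 436 in Mirc11-/- HSPCs and 641, 509 and 463 in wildtype HSPCs (0.19 ± 0.21). Mirc11-/- libraries were here both the highest and the lowest of the 6. Cdkn2d, another INK4 gene, was low throughout, at 25.5 to 35.2 in Mirc11-/- HSPCs and 26.6 to 46.6 in wildtype HSPCs. The senescence-associated genes Cdkn2a and Cdkn2b had 0 reads in all 6 libraries and were not tested.

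The retinoblastoma family and the repressor E2Fs differed little. Rb1 had 1097, 982 and 770 normalized counts in Mirc11-/- HSPCs and 840, 900 and 831 in wildtype HSPCs (log2 fold change 0.13 ± 0.13, limma adjusted p = 0.792). Rbl1, whose product p107 is most abundant in cycling cells, had 2539, 2391 and 2079 in Mirc11-/- HSPCs and 2304, 2401 and 2112 in wildtype HSPCs (0.04 ± 0.10). Rbl2, whose product p130 binds E2F4 in resting cells, had 1568, 1675 and 1769 in Mirc11-/- HSPCs and 1537, 1542 and 1627 in wildtype HSPCs (0.09 ± 0.08). For all 3 genes the ranges of the genotypes overlapped. E2f4, the gene of the main repressor E2F of resting cells, had 3362, 2897 and 2184 in Mirc11-/- HSPCs, against 2511, 2226 and 2008 in wildtype HSPCs. Its log2 fold change was 0.31 ± 0.15 (SE, limma adjusted p = 0.623), 0.17 without Mirc11-/- replicate 1 and 0.48 without Mirc11-/- replicate 3 (limma adjusted p = 0.048). With the erythroid marker mean as a covariate it was -0.013. E2f4 and Rbl2 lie on chromosome 8, 21.09 and 6.86 Mb from Mir23a. E2f5, the closest relative of E2f4, was at 134 to 160 in Mirc11-/- HSPCs and 136 to 154 in wildtype HSPCs, a log2 fold change of -0.0034. Of the 10 quiescence regulators 6 had positive and 4 negative log2 fold changes, with a median of 0.05.

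**Figure D2:**
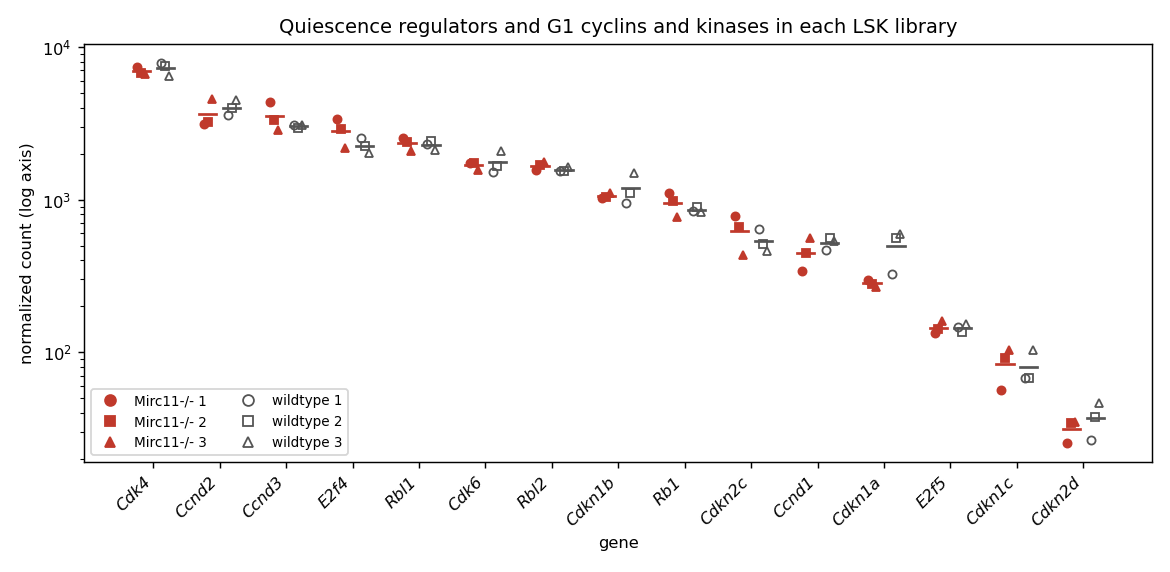
Normalized counts (log axis) of the 10 quiescence regulators and 5 G1 genes in each library, Mirc11-/- filled and wildtype open, with lines at the group means. Cdkn1a is the only gene shown whose genotypes do not overlap, at 269 to 299 in Mirc11-/- HSPCs and 326 to 598 in wildtype HSPCs.

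The G1 machinery was abundant in both genotypes. Divided by transcript length, Cdk4 had the highest level of all members, at 3358 normalized counts per kb in Mirc11-/- HSPCs and 3547 in wildtype HSPCs. Its raw values were 7330, 6740 and 6612 in Mirc11-/- HSPCs and 7835, 7524 and 6485 in wildtype HSPCs (log2 fold change -0.08 ± 0.09, limma adjusted p = 0.835). Cdk6, the kinase with the same D cyclin partners, had 1748, 1725 and 1572 in Mirc11-/- HSPCs and 1525, 1663 and 2091 in wildtype HSPCs (-0.05 ± 0.12). Neither kinase gene separated the genotypes. The order of the D cyclins by level per kb was Ccnd3, Ccnd2 and Ccnd1, at 908, 576 and 120 in Mirc11-/- HSPCs and 786, 632 and 140 in wildtype HSPCs.

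The 3 D cyclins did not move together. Ccnd1 had 340, 446 and 563 normalized counts in Mirc11-/- HSPCs and 469, 558 and 538 in wildtype HSPCs (log2 fold change -0.24 ± 0.18, limma adjusted p = 0.721). Ccnd2 had 3135, 3220 and 4582 in Mirc11-/- HSPCs and 3591, 3959 and 4453 in wildtype HSPCs (-0.15 ± 0.15, limma adjusted p = 0.794). For both, Mirc11-/- replicates 1 and 2 were below all wildtype libraries and Mirc11-/- replicate 3 was above them. Ccnd3 showed the opposite order, with 4352, 3299 and 2857 in Mirc11-/- HSPCs and 3072, 2939 and 3086 in wildtype HSPCs (0.19 ± 0.14, limma adjusted p = 0.723). Cyclin D3 is the D cyclin known for its role in erythroid precursors of mice. Once the fit held the erythroid marker mean as a covariate, the log2 fold changes were 0.09 ± 0.13 for Ccnd1, 0.15 ± 0.08 for Ccnd2 and -0.05 ± 0.11 for Ccnd3. The part of erythroid cells in the D cyclin values was not tested. Exons of Ccnd1, Ccnd2, Ccnd3, Cdk4 and Cdk6 each overlap another gene by over 100 bases, so shared reads are possible for all 5. The same holds for other members, since 17 of the 51 overlap another gene by at least 100 bases. Among them are Rbl2 (693 bases, Aktip), Ccne2 (609, Ints8), Ccna2 (510, Exosc9) and Ccnl1 (442, Gm37305). Leaving out single libraries gave -0.42 to -0.05 for Ccnd1, -0.33 to -0.05 for Ccnd2 and 0.02 to 0.32 for Ccnd3.

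Of the 13 S and M phase drivers, 9 had positive and 4 negative log2 fold changes (median 0.12), and none passed an unadjusted p of 0.05. The median was 0.0065 without Mirc11-/- replicate 1 and 0.36 without Mirc11-/- replicate 3, so it depended on single libraries. Their levels differed between libraries of 1 genotype. In 9 of the 13, Mirc11-/- replicate 1 was the highest of all 6 libraries, and in 10 the lowest was Mirc11-/- replicate 3 or wildtype replicate 3. Relative to the wildtype mean, the 13 had a mean log2 level of 0.42, 0.18 and -0.15 in Mirc11-/- replicates 1, 2 and 3, against 0.13, 0.09 and -0.21 in wildtype replicates 1, 2 and 3. Erythroid markers gave 1.96, 1.46 and -0.15 in Mirc11-/- libraries and 0.49, -0.15 and -0.34 in wildtype libraries in the same order. In both sets Mirc11-/- replicate 1 was highest, replicate 2 was next and wildtype replicate 3 was lowest. With the erythroid markers as a covariate the median log2 fold change of the 13 was -0.11.

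**Figure D3:**
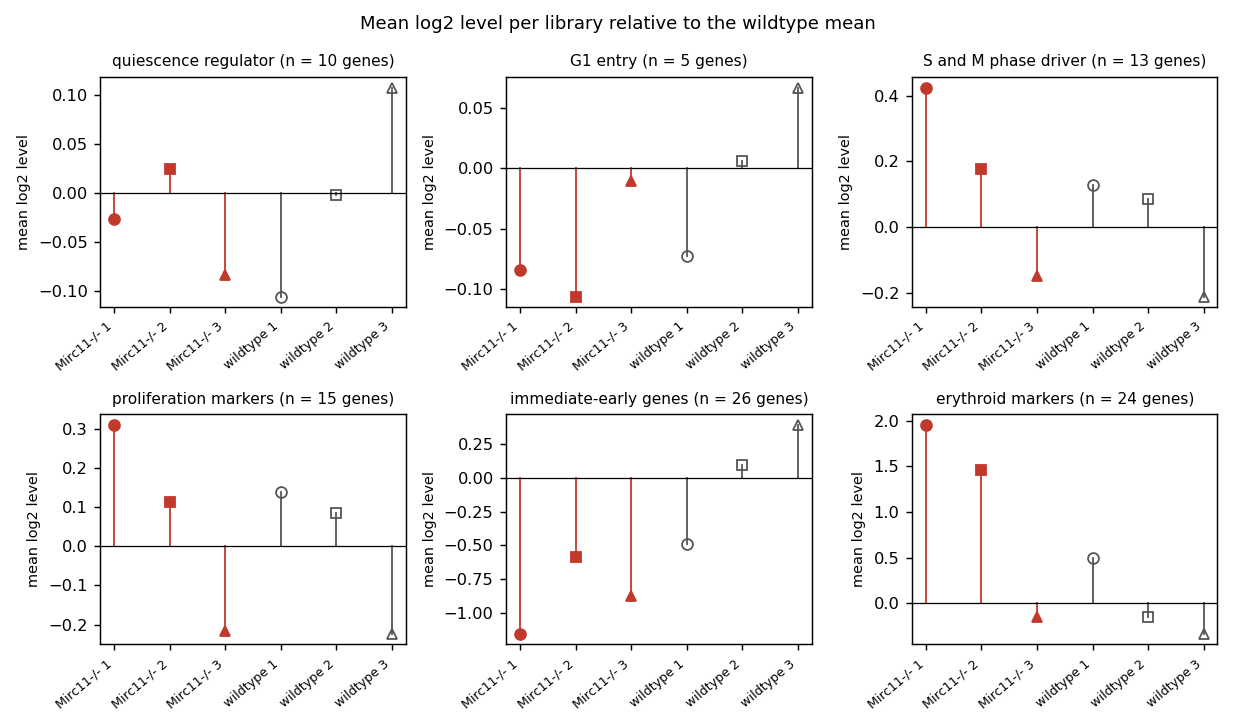
Mean log2 level of 3 roles and 3 marker lists in each library, relative to the wildtype mean (y axes differ between panels). S and M phase drivers (0.42 in Mirc11-/- replicate 1, -0.21 in wildtype replicate 3) and erythroid markers (1.96 and -0.34) have the same highest and lowest library, while immediate-early genes are at -0.59 or lower in all 3 Mirc11-/- libraries.

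Ccne1 had the largest positive log2 fold change of all members. Cyclin E activates Cdk2 at the entry into S phase. Ccne1 had 1334, 1193 and 533 normalized counts in Mirc11-/- HSPCs, against 786, 544 and 499 in wildtype HSPCs. Mirc11-/- replicates 1 and 2 were above every wildtype library, and replicate 3 was inside their range. The log2 fold change was 0.66 ± 0.32 (SE, limma adjusted p = 0.617), 0.42 without Mirc11-/- replicate 1 and 1.08 without Mirc11-/- replicate 3 (limma adjusted p = 0.014). With the erythroid markers as a covariate it was -0.06. Ccne2, the other cyclin E gene, had 1153, 954 and 707 in Mirc11-/- HSPCs and 746, 770 and 704 in wildtype HSPCs. Its log2 fold change was 0.31 ± 0.16 (limma adjusted p = 0.630), 0.15 without Mirc11-/- replicate 1 and 0.50 without Mirc11-/- replicate 3 (limma adjusted p = 0.041). The erythroid covariate left 0.0082. Cdk2, the kinase partner of both, had the smallest SE of all members, with 2337, 2264 and 2394 in Mirc11-/- HSPCs and 2346, 2345 and 2344 in wildtype HSPCs (log2 fold change -0.0086 ± 0.07).

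The cyclins of later phases also had their highest level in Mirc11-/- replicate 1. Ccna2, cyclin A of S phase and G2, had 4843, 3984 and 2880 normalized counts in Mirc11-/- HSPCs and 3577, 3634 and 2439 in wildtype HSPCs (log2 fold change 0.27 ± 0.21, limma adjusted p = 0.731). Ccnf encodes an F-box protein that marks proteins for degradation in G2 and binds no CDK. It had 1642, 1266 and 910 in Mirc11-/- HSPCs and 1005, 1037 and 785 in wildtype HSPCs (0.40 ± 0.20, limma adjusted p = 0.623). The Ccnf value was 0.20 without Mirc11-/- replicate 1, 0.62 without Mirc11-/- replicate 3 (limma adjusted p = 0.051) and 0.0041 with the erythroid covariate. In both genes Mirc11-/- replicates 1 and 2 exceeded all wildtype libraries. The mitotic cyclin Ccnb1 had 1451, 1253 and 770 in Mirc11-/- HSPCs and 1097, 1117 and 763 in wildtype HSPCs (0.19 ± 0.23). Ccnb2 had 2193, 1776 and 1210 in Mirc11-/- HSPCs and 1722, 1646 and 1289 in wildtype HSPCs (0.12 ± 0.20). Their kinase Cdk1 had 2401, 1954 and 1403 in Mirc11-/- HSPCs and 1886, 2102 and 1450 in wildtype HSPCs (0.07 ± 0.20). These 3 mitotic genes ranged more widely within each genotype than the genotype means differed. With the erythroid covariate the log2 fold changes of Ccna2, Ccnb1, Ccnb2 and Cdk1 were -0.12, -0.28, -0.30 and -0.30. The germline cyclin genes Ccna1 and Ccnb3 had 2 reads and 1 read over all libraries and were not tested.

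**Figure D4:**
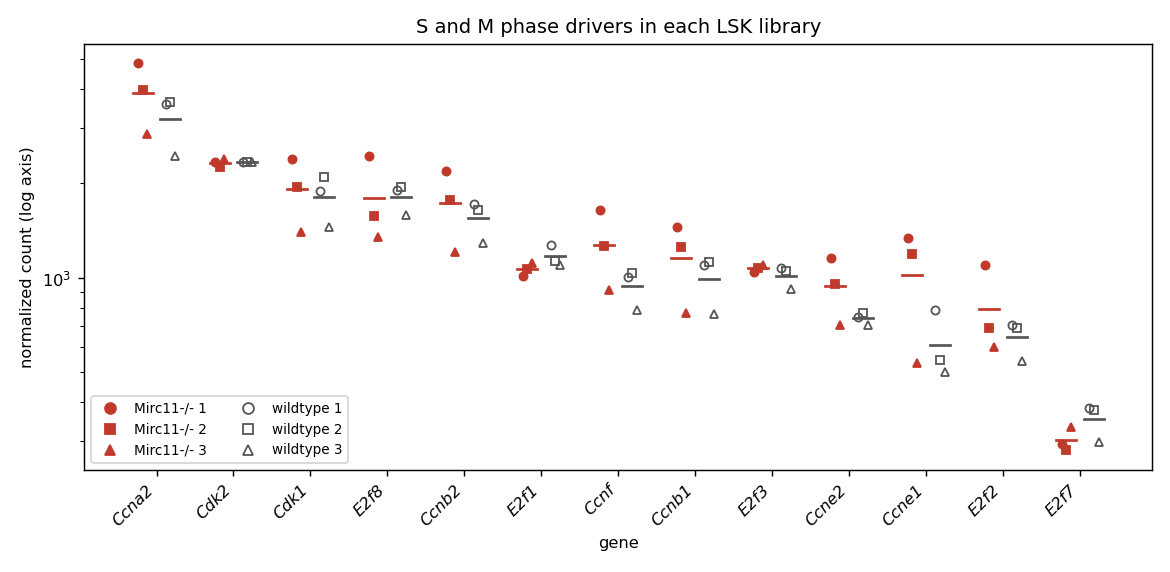
Normalized counts (log axis) of the 13 S and M phase drivers in each library, Mirc11-/- filled and wildtype open, with lines at the group means. Mirc11-/- replicate 1 is the highest library for 9 genes, including Ccne1 (1334) and Ccna2 (4843), and replicate 3 lies within or below the wildtype range for most of them.

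E2F factors of the cycling cell were split. The activator E2f1 had 1008, 1065 and 1116 normalized counts in Mirc11-/- HSPCs and 1274, 1132 and 1098 in wildtype HSPCs (log2 fold change -0.13 ± 0.09, limma adjusted p = 0.694). E2f2, another activator, with a known role in the maturation of mouse erythroid cells, had 1096, 687 and 601 in Mirc11-/- HSPCs and 704, 688 and 540 in wildtype HSPCs (0.26 ± 0.21). Mirc11-/- replicate 1 alone stood above the wildtype range of E2f2, and the log2 fold change was 0.0070 without that library and 0.44 without Mirc11-/- replicate 3. E2f7, an atypical repressor that E2F1 induces, had 293, 280 and 333 in Mirc11-/- HSPCs and 384, 378 and 299 in wildtype HSPCs (-0.22 ± 0.14, limma adjusted p = 0.677). The activator E2f3 was nearly level, at 1044 to 1098 in Mirc11-/- HSPCs and 922 to 1075 in wildtype HSPCs (0.08 ± 0.09). The atypical repressor E2f8 ranged from 1352 to 2454 in Mirc11-/- HSPCs and from 1584 to 1943 in wildtype HSPCs (-0.06 ± 0.20), so its wildtype values lay inside the Mirc11-/- range.

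Promoter motifs of cell cycle genes were searched on both strands within 250 bases upstream of RefSeq starts, which 39 members had. The E2F motifs searched were TTTCCCGC or TTTCGCGC or TTTGCCGC or TTTGGCGC, the cell cycle homology region (CHR) bound by MuvB complexes was TTTGAA or TTCGAA, and the NF-Y site was CCAAT. An E2F motif stood upstream of 4 of 11 S and M phase drivers (E2f7, E2f3, Cdk1 and Cdk2, 36.4%) and of 2.16% of 27025 genes. A CHR stood upstream of 6 of 11 (54.5%) and of 19.6% of genes, and a CCAAT box of 9 of 11 (81.8%) and of 37.5% of genes. The CHR counted for E2f2 stands upstream of a RefSeq start that lies inside the annotated gene. In the 9 transcriptional cyclin and CDK genes with a window no E2F motif and no CHR was found. Stretches of the windows of Cdk1, Ccnb2 and Ccnf are shown because they hold several of these motifs (in capitals, also as reverse complements), each on the minus strand of GRCm38.p6. Cdk1 and Ccnf each have a further CHR, closer to the RefSeq start than the stretch shown and inside the annotated gene.
Cdk1, chr10:69352946-69353130: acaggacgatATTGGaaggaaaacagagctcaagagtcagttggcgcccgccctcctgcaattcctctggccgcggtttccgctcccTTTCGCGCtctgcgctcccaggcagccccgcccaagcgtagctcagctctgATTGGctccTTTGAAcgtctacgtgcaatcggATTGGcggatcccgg
Ccnb2, chr9:70421561-70421731: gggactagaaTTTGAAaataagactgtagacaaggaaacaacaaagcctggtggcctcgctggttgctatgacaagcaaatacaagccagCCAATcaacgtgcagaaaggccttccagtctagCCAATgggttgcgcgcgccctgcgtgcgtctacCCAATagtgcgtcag
Ccnf, chr17:24251502-24251566: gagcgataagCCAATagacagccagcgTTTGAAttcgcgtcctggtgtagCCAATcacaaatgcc
A match says that the letters are there, not that a factor bound them in these cells. Cdk1 and Ccnb2, with these motifs, did not differ between genotypes beyond their spread. Ccnf had a log2 fold change of 0.40 ± 0.20 (limma adjusted p = 0.623), with Mirc11-/- replicates 1 and 2 above every wildtype library.

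Other genes of the cycle were read beside the members. None of 15 proliferation markers passed an unadjusted p of 0.05 in either direction, and their median log2 fold change was 0.02. Mki67, the marker of cycling cells, had 17161, 13761 and 8874 normalized counts in Mirc11-/- HSPCs and 10979, 11456 and 8753 in wildtype HSPCs (0.31 ± 0.22, limma adjusted p = 0.701). Its libraries were ordered like those of Ccna2, with Mirc11-/- replicates 1 and 2 above the wildtype range. Of 27 kinases, phosphatases and ligases that act on CDKs, 19 had positive log2 fold changes (median 0.08), and none passed an unadjusted p of 0.05. Skp2, the ligase subunit that targets the Cdkn1b product p27 for degradation, had 829, 556 and 532 in Mirc11-/- HSPCs and 469, 530 and 495 in wildtype HSPCs (0.33 ± 0.17, limma adjusted p = 0.626). Its genotypes did not overlap. The 9 E2F partners and MuvB or mitotic transcription factors had a median of 0.02, with none past an unadjusted p of 0.05.

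Among the transcriptional CDK genes, Cdk19 and Ccnl1 stood on the negative side and Cdk12 on the positive side at an unadjusted p under 0.05. Cdk8 and Cdk19 are alternative kinases of the Mediator complex, with cyclin C as their partner. Cdk19 had 2686, 2738 and 3796 normalized counts in Mirc11-/- HSPCs, against 3763, 4075 and 4266 in wildtype HSPCs. Mirc11-/- replicates 1 and 2 were below every wildtype library, and replicate 3 was just above the lowest. The log2 fold change was -0.41 ± 0.13 (SE, limma adjusted p = 0.490), -0.32 without Mirc11-/- replicate 1 and -0.57 without Mirc11-/- replicate 3 (limma adjusted p = 0.011). With the erythroid covariate it was -0.14. Exons of Cdk19 overlap those of Cdk19os by 268 bases. Cdk8 was at 791 to 945 in Mirc11-/- HSPCs and 774 to 896 in wildtype HSPCs, and Ccnc at 448 to 529 and 414 to 490, with log2 fold changes of 0.07 and 0.14. The 2 Mediator kinases thus had opposite signs.

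Ccnl1, an L-type cyclin that partners the CDK11 kinases and is linked to RNA splicing, had 3119, 3564 and 3776 normalized counts in Mirc11-/- HSPCs, against 3743, 5041 and 5487 in wildtype HSPCs. Only wildtype replicate 1 lay within the Mirc11-/- range. The log2 fold change was -0.43 ± 0.14 (SE, limma adjusted p = 0.502), -0.60 without wildtype replicate 1 and -0.32 without wildtype replicate 3. With the erythroid covariate it was -0.23. The related Ccnl2 had 0.11 ± 0.09. As with Cdkn1a, wildtype replicate 1 was the lowest wildtype library, which was also the lowest one for immediate-early genes.

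Cdk12 and Cdk13 pair with cyclin K and phosphorylate RNA polymerase II during elongation. Cdk12 had 1545, 1474 and 1384 normalized counts in Mirc11-/- HSPCs and 1077, 1235 and 1397 in wildtype HSPCs (log2 fold change 0.25 ± 0.11, limma adjusted p = 0.588). Cdk13 had 1734, 1652 and 1717 in Mirc11-/- HSPCs and 1428, 1537 and 1658 in wildtype HSPCs (0.14 ± 0.08, limma adjusted p = 0.641). In both, wildtype replicate 3 lay within the Mirc11-/- range and the other wildtype libraries lay below it. Their cyclin Ccnk had a log2 fold change of 0.04. Cdk9, the kinase of the elongation factor P-TEFb, had 2201, 2181 and 2175 in Mirc11-/- HSPCs and 2347, 2446 and 2283 in wildtype HSPCs (-0.11 ± 0.07). Cdk7, which activates other CDKs and belongs to TFIIH, had 1084, 1094 and 987 in Mirc11-/- HSPCs and 978, 983 and 973 in wildtype HSPCs (0.11 ± 0.08). The genotypes did not overlap for either gene, and both differences were small. Ccnh, the cyclin of Cdk7, had 0.07. Of the 11 genes of this role 8 had positive log2 fold changes, with a median of 0.07.

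Among the remaining 12 members, Ccng1 encodes cyclin G1, which p53 induces and which recruits protein phosphatase 2A to Mdm2. Ccng1 had 2016, 1893 and 1681 normalized counts in Mirc11-/- HSPCs and 1492, 1491 and 1733 in wildtype HSPCs (log2 fold change 0.25 ± 0.10, limma adjusted p = 0.573). Only wildtype replicate 3 entered the Mirc11-/- range. Cdk20, a kinase linked to cilia, had 207, 194 and 197 in Mirc11-/- HSPCs and 156, 149 and 194 in wildtype HSPCs (0.27 ± 0.15, limma adjusted p = 0.640). Cdk16, a PCTAIRE kinase, had 1565, 1526 and 1496 in Mirc11-/- HSPCs and 1422, 1420 and 1384 in wildtype HSPCs (0.12 ± 0.07, limma adjusted p = 0.667). Their genotypes did not overlap. Ccni, an atypical cyclin, had 3357, 3419 and 3774 in Mirc11-/- HSPCs and 3675, 3760 and 3665 in wildtype HSPCs (-0.08 ± 0.08). The log2 fold changes of E2f6, Ccnj, Ccng2, Cdk17, Cdk10, Cdk5, Cdk18 and Cdk14 were between -0.08 and 0.10. Of these, Cdk17 had the highest counts, at 1811 to 2253 in Mirc11-/- HSPCs and 1809 to 2321 in wildtype HSPCs. E2f6, which represses genes without binding the retinoblastoma proteins, was at 946 to 1004 in Mirc11-/- HSPCs and 827 to 1078 in wildtype HSPCs. Ccng2, the relative of Ccng1, was at 849 to 960 in Mirc11-/- HSPCs and 805 to 1131 in wildtype HSPCs, with no separation of the genotypes. Cdk14 had the lowest level per kb of the members tested in both genotypes, at 59.6, 120.5 and 143 normalized counts in Mirc11-/- HSPCs and 96.6, 92.3 and 128 in wildtype HSPCs. Cdk15 had 0 reads in all libraries.

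Cyclins and CDK-related genes that the symbol rule missed gave 2 more members of these families at an unadjusted p under 0.05, of 15 measured. Cdk5r1, which encodes the p35 activator of Cdk5, had 244, 219 and 182 normalized counts in Mirc11-/- HSPCs and 124, 155 and 162 in wildtype HSPCs (log2 fold change 0.54 ± 0.18, limma adjusted p = 0.490). Cdk5 itself was flat, at 561 to 592 in Mirc11-/- HSPCs and 575 to 600 in wildtype HSPCs. Ccnt1, the cyclin of Cdk9, had 584, 511 and 442 in Mirc11-/- HSPCs and 404, 401 and 428 in wildtype HSPCs (0.31 ± 0.12, limma adjusted p = 0.573). The genotypes did not overlap for either gene, nor for 12.9% of all genes. Cdk9 had a negative and Ccnt1 a positive log2 fold change.

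The seeds of the deleted miRNAs were matched to 3′ UTRs of GENCODE M21, taking the longest per gene, which all 51 members and 86.6% of the genes tested had. Matches to bases 2 to 8 of miR-23a stood in 12 members (23.5%, against 16.1% of 13558 genes), of miR-27a in 10 (19.6%, against 16.8%) and of miR-24 in 6 (11.8%, against 18.8%). The 24 members with any match had a median log2 fold change of 0.07, and the 27 without one also had 0.07. Ccng1 and Cdk12, both on the positive side at an unadjusted p under 0.05, carried matches, and so did Cdk19, which was on the negative side. Cdkn1a, Ccne1 and Ccnl1 had none in this window. The matched sites of these genes, and those of Cdkn1b and E2f2 for miR-24, are shown with the match in capitals.
Ccng1, miR-23a, chr11:40749552-40749579 (minus strand): aaggctaaagacataAATGTGAaataaa
Ccng1, miR-27a, chr11:40749539-40749566 (minus strand): taaatgtgaaataaaACTGTGAaccttc
Cdk12, miR-24, chr11:98251464-98251491 (plus strand): cataggacattgctgCTGAGCCatggtt
Cdk19, miR-23a, chr10:40482728-40482755 (plus strand): agctcaaagtagcgtAATGTGAgtgggt
Cdkn1b, miR-24, chr6:134925410-134925437 (plus strand): ttaaaaggttgcataCTGAGCCaagtat
E2f2, miR-24, chr4:136193706-136193733 (plus strand): gatgtcttatctttcCTGAGCCtcccaa
Cdk1 held 3 matches to miR-24 and 1 to miR-27a, and its log2 fold change was 0.07. The windows of the 2 Ccng1 sites overlap, and a further miR-23a match lies elsewhere in its UTR. Of these genes Cdkn1b had a log2 fold change of -0.14, E2f2 of 0.26, Ccng1 of 0.25, Cdk12 of 0.25 and Cdk19 of -0.41, so members with matches stood on both sides of 0.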

How the data were processed

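RNA-seq libraries were made from Lin-Sca1+cKit+ bone marrow cells of 3 Mirc11-/- and 3 wildtype RNA preparations. STAR, Cufflinks and mm10 are named in the submitters' notes on processing, whereas the methods name DE-seq and hg19. Tool versions and the annotation were not given in the sources used here. Although the file name says FPKM, the deposited values were a normalized signal per gene, in which 1 read is worth close to 1 in each library: 100% of the values were whole multiples of a step within 0.001, with no division by gene length. They are called normalized counts here. Because the steps are so close to 1, count tests were not run. Two-sided comparisons used limma 3.58.1 (R 4.3.3) with a mean-variance trend on log2(value + 1), over 15662 genes with a mean of at least 1, with Benjamini-Hochberg adjustment at 0.05. Fold changes are on that log2 scale and understate those of low genes. The fit was tested on simulated data. Libraries held 15029379 to 17051541 reads in genes.

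The members and gene lists were chosen with earlier results of these data known, and lists were described by counts and medians only. Values in every library were given for the 4 members of each role with the smallest p and for 22 core genes, 32 in all. Of each list the 3 genes with the smallest p could be named. Kit, Ly6a, Klf1, Gata1, Trp53, Cdk9, Cdk7, Cdk5 and Cdk14 were given values after these were seen. Mdm2 and Btg2 each stand in 2 lists. Gene models were from GENCODE M21 and promoter and miRNA sequences from RefSeq, both on GRCm38.p6, the patch release of mm10. Motif counts used all 250 bases upstream of each RefSeq start, and only the stretches shown were limited to bases upstream of the annotated gene. Levels per kb used the longest transcript. Other settings tried were a pseudocount of 0.1 or 0.5, no minimum or a minimum of 10, median-ratio, TMM and quantile normalization, no trend, a block on the replicate number, omission of single libraries, and the erythroid marker mean as a covariate.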

Additional observations from a re-analysis of the deposited data

How the results depend on the processing

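No member was called under any alternative other than the fit without Mirc11-/- replicate 3. Changing the pseudocount, the filter or the normalization moved no count of members and turned no named member round. Leaving out each library in turn gave 1 to 531 calls over all genes, against 5 with all libraries: 1 without any one wildtype library, 2 without Mirc11-/- replicate 2, 14 without Mirc11-/- replicate 1 and 531 without Mirc11-/- replicate 3. It gave 0 to 4 members called, and 0 to 13 higher and 2 to 5 lower by unadjusted p. The medians ranged from 0.0065 to 0.36 for S and M phase drivers, from -0.15 to -0.046 for G1 genes and from 0.022 to 0.14 for transcriptional genes. They changed sign for quiescence regulators (-0.014 to 0.064) and for the remaining 12 members (-0.0090 to 0.096). Named members that changed sign ranged from -0.29 to 0.039 (Cdkn1b), -0.11 to 0.32 (Cdkn1c), -0.025 to 0.12 (Rbl1), -0.15 to 0.077 (Cdk6), -0.028 to 0.012 (Cdk2), -0.071 to 0.36 (Ccnb2) and -0.11 to 0.27 (Cdk1). Without a trend 0 members were higher by unadjusted p. Libraries with the same replicate number correlated by only 0.07, -0.06 and 0.10 in their deviations over all genes. That cannot decide whether the numbers pair the libraries. A replicate block gave 30 calls over all genes, 0 members called and 7 members higher and 3 lower by unadjusted p. Shares of all genes by unadjusted p were taken only with all libraries and without Mirc11-/- replicate 3. The member counts of the other fits therefore have no such baseline. With the block, the smallest unadjusted limma p values were those of the lower members Ccnl1 (0.0005), Cdk19 (0.0018) and Cdkn1a (0.0043). Their adjusted p was 0.097, 0.137 and 0.183. Next came Ccne1 (0.0049), E2f4 (0.0051), Ccnf (0.0056) and Ccna2 (0.0087), all higher, with an adjusted p of 0.194 to 0.223. With the erythroid covariate 1 member was higher (Ccnl2) and 4 were lower (Cdkn1a, Cdkn2c, Ccnb2 and E2f8) by unadjusted p, the median of transcriptional genes was -0.054, and 16 named members changed sign: E2f4 (-0.013), Rb1 (-0.085), Cdkn1b (0.0061), Cdkn2c (-0.26), Rbl1 (-0.10), Ccnd1 (0.093), Ccnd2 (0.15), Ccnd3 (-0.051), Ccne1 (-0.063), Cdk2 (0.014), Ccna2 (-0.12), Ccnb1 (-0.28), Ccnb2 (-0.30), Cdk1 (-0.30), E2f2 (-0.11) and Ccni (0.0034). None of these 16 had passed the threshold, and the cause was not tested. The planned count tests with edgeR and DESeq2 were not run. With 3 libraries a group, differences of the size seen in most members could not be told from the spread between libraries.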

Other observations

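Markers of other blood lineages were read in the same libraries. Of 15 stem and multipotent progenitor markers 9 had negative and 6 positive log2 fold changes, with a median of -0.06. Of the 15, 2 were lower in Mirc11-/- HSPCs by an unadjusted p under 0.05. Cd34 had 7475, 9009 and 13380 normalized counts in Mirc11-/- HSPCs and 12410, 12883 and 13794 in wildtype HSPCs (log2 fold change -0.43), and the receptor gene Flt3 had 5614, 6643 and 10820.0 in Mirc11-/- HSPCs and 9449, 9855 and 12040 in wildtype HSPCs (-0.49). Mirc11-/- replicates 1 and 2 were below the wildtype range for both genes, and replicate 3 was within it. Of 13 neutrophil and granule markers 9 had positive and 4 negative log2 fold changes, and 4 were higher by the same measure. Among these 4 were the metalloproteinase genes Mmp9, at 86.1, 62.3 and 56.3 in Mirc11-/- HSPCs and 16.8, 13.9 and 38.5 in wildtype HSPCs (1.64), and Mmp8 (1.32). The summed level of the 13 was 243034, 191947 and 148263 in Mirc11-/- replicates 1, 2 and 3, and 172606 to 209170 in wildtype libraries. Of 8 monocyte and dendritic cell markers 6 had negative and 2 positive log2 fold changes. Cd68 (-0.73) was lower by unadjusted p, while Ccr2 (0.70) and Siglech (1.18) were the 2 positive ones and did not pass. Of 9 B lineage markers 1 was higher, the surrogate light chain gene Igll1, at 11.3, 36.3 and 36.2 in Mirc11-/- HSPCs and 5.92, 12.9 and 4.05 in wildtype HSPCs. The 9 markers together stood at a median log2 level of -0.28, 1.47 and 1.49 in Mirc11-/- replicates 1, 2 and 3 relative to wildtype, a different order of libraries than for the S and M phase drivers. Of 7 mast cell and basophil markers 2 were higher, Fcer1a (2.63) and Prss34 (1.82). Fcer1a was near the floor, at 35.0, 10.4 and 22.1 in Mirc11-/- HSPCs and 3.94, 0 and 7.09 in wildtype HSPCs. Prss34 had 1023, 321 and 133 in Mirc11-/- HSPCs and 95.7, 58.6 and 174 in wildtype HSPCs, so Mirc11-/- replicate 3 was within the wildtype range. Of 7 megakaryocyte markers measured 1 was higher, Vwf (0.50), and of 6 T and NK lineage markers measured none passed. None of these genes passed an adjusted p of 0.05 by limma with all libraries. Without Mirc11-/- replicate 3, limma called 2 stem and progenitor and 1 T or NK marker lower, and 1 neutrophil, 1 monocyte or dendritic cell and 1 mast cell or basophil marker higher.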
